A study of Mus musculus with 4 samples.

Results

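Galectins are small lectins that bind galactose-containing sugar chains on proteins and lipids. The 8 galectin genes Lgals1, Lgals2, Lgals3, Lgals4, Lgals7, Lgals8, Lgals9 and Lgals12 were taken by name from an expression array of vascular smooth muscle cells. Each had 1 probe set (the group of array probes read out as 1 value), so the galectins made up 8 of 909 named genes and 8 of 1246 probe sets. The rule that names them uses no measured value, although earlier results of these data were known when it was written.

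The 4 arrays held RNA of wild-type mouse vascular smooth muscle cells, the contractile cells of the artery wall, cultured with osteogenic medium, under which such cells take on features of bone. With streptozotocin, cells of the named cell samples WTA (replicate 2) and WT2 (replicate 1) received 0.4 mM of this glucosamine-containing nitrosourea, which is toxic to pancreatic beta cells. Control cells of WTA and WT2 received none. WTA and WT2 are called cultures here, and the labels do not say whether they came from separate animals. Sample titles carry a "3w", the meaning of which is not stated, and no other age or time is given. P-values therefore measure only the spread between these arrays. The design text asks how genes of sugar chains respond to streptozotocin while the cells calcify, and it names Runx2, the main transcription factor of bone cells. Of 8 smooth muscle markers looked for, 0 were among the named probe sets, and the same held for 7 genes of bone-like cells, so the labelled cell type could not be checked. Array medians lay between 5.83 and 5.87 log2, and precision is limited by there being 4 arrays.

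Galectins are made in the cytosol and reach the cell surface without a signal peptide. They differ in build: Lgals1, Lgals2 and Lgals7 encode proteins with a single sugar-binding domain that can pair, Lgals4, Lgals8, Lgals9 and Lgals12 encode tandem-repeat proteins with a pair of linked domains, and Lgals3 encodes the chimeric galectin, whose sugar-binding domain carries a collagen-like tail through which molecules cluster. By linking glycoproteins they change cell adhesion and receptor signalling, and galectin-1 and galectin-3 are known products of smooth muscle cells and of diseased arteries.

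Lgals1 gave the brightest galectin signal. It stood at 13.42 log2 in WTA and 13.33 in WT2 with streptozotocin, against 13.33 in WTA and 13.49 in WT2 in control cells. The signals thus spanned 0.16 log2, a 1.12-fold range, and the groups overlapped. Its mean of 13.39 ± 0.08 (SD over 4 arrays) stood at percentile 99.7 of all probe sets. Processed pseudogenes of Lgals1 exist in the mouse genome, and the probe set carries the mark s, which can stand for probes shared between transcripts.

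Lgals9 and Lgals3 came next, both among the brightest probe sets of the array. Galectin-9 is a tandem-repeat galectin known as a ligand of the immune receptor Tim-3. Its signal was 11.27 in WTA and 11.08 in WT2 with streptozotocin, against 11.23 in WTA and 10.94 in WT2 in control cells. Both WTA arrays lay above both WT2 arrays, while the streptozotocin and control arrays overlapped. Galectin-3, also known as the macrophage antigen Mac-2, is linked to fibrosis and plaque inflammation. Its signal was 11.09 in WTA and 10.98 in WT2 with streptozotocin, against 10.81 in WTA and 11.26 in WT2 in control cells. Here the control arrays were the highest and the lowest, with both streptozotocin arrays between them. The means, 11.13 ± 0.15 for Lgals9 and 11.04 ± 0.19 for Lgals3 (SD over 4 arrays), differed by 0.09, less than either SD.

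Lgals3 and Lgals9 had the widest ranges over the arrays, 0.45 and 0.33 log2. Their promoter windows, 250 bases before to 50 after the RefSeq gene start (build GRCm38.p6), are shown because these neighbours in signal ordered the arrays in different ways. Capitals mark GC boxes (GGGCGG or CCGCCC) and the Runx core (TGTGGT or ACCACA), a form of the motif that Runx2 binds. The windows are chr14:47373610-47373909, plus strand, and chr11:78984875-78985174, minus strand.
Lgals3 promoter: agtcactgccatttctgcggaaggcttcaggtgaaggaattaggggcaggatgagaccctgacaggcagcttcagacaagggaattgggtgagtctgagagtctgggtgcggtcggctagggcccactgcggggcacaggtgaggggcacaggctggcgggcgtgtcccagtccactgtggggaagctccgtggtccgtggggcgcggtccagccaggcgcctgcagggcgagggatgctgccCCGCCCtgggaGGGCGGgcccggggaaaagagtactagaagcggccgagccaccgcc
Lgals9 promoter: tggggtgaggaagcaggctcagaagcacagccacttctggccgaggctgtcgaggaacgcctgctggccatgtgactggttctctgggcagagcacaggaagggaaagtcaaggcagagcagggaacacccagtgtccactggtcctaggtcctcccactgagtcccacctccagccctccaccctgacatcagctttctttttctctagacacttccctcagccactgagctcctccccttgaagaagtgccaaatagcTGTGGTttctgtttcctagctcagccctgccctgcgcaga
The Lgals3 window held 18 CpG dinucleotides, more than 70.3% of all 32851 promoter windows (median 7), with 2 GC boxes and no Runx core of that form. It also held TGCGGT, which differs from TGTGGT in a single base and was not searched for. The Lgals9 window held 4 CpG dinucleotides, 1 Runx core and no GC box. Of all windows, 35.7% held a GC box and 16.8% a Runx core on either strand. Windows were found for 6 of the 8 galectins, and Lgals8 was the other one with a Runx core, while Lgals4 and Lgals7 held 1 GC box each. The 6 windows held no match to TGANTCA (AP-1), to TATAAA or its reverse complement, or to the CArG box of smooth muscle genes, which 7.81%, 13.6% and 1.63% of all windows did. These matches describe letters only and say nothing of binding in these cells.

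Lgals8, whose protein marks damaged vesicles for autophagy and binds integrins, had a mean signal at percentile 79.1. It had 9.12 in WTA and 9.05 in WT2 with streptozotocin, against 8.997 in WTA and 9.05 in WT2 in control cells. The streptozotocin arrays lay above the control arrays, but the WT2 arrays were only 0.004 apart. Its range of 0.12 was the narrowest among the galectins.

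The genes of epithelial galectins gave middling signals. Lgals7, of stratified epithelium, stood at 7.12 in WTA and 6.999 in WT2 with streptozotocin, against 7.09 in WTA and 7.16 in WT2 in control cells. Lgals4, of the gut lining, stood at 6.75 in WTA and 6.94 in WT2 with streptozotocin, against 6.98 in WTA and 7.05 in WT2 in control cells. The probe sets of Lgals7, Lgals4, Lgals9 and Lgals3 carry the mark s as well, so probes shared with other transcripts or a close copy cannot be told from these genes' own. For Lgals4 both streptozotocin arrays were below both control arrays, and for Lgals7 the groups overlapped. Lgals7 was brighter than Lgals4 on each of the 4 arrays, with means 0.16 apart and SDs of 0.07 and 0.13.

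Lgals2, also a galectin of the gut, lay at the middle of the array, and Lgals12, a protein of fat droplets in adipocytes, near its floor. Lgals2 had 5.88 in WTA and 5.78 in WT2 with streptozotocin, against 5.97 in both control arrays. Lgals12 had 3.60 in WTA and 3.56 in WT2 with streptozotocin, against 3.64 in WTA and 3.73 in WT2 in control cells. In both genes the streptozotocin arrays were the lower ones. The Lgals12 mean of 3.63 ± 0.07 was below the lower quartile of probe sets, 4.40, where values hold background as well as signal, so a small difference there may understate a change and does not show expression.

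By mean signal the order was Lgals1, Lgals9, Lgals3, Lgals8, Lgals7, Lgals4, Lgals2 and Lgals12, and 7 of the 8 lay above the median probe set (5.86). A signal depends on the probes as well as on the RNA, so this is an order of signals and not of transcript amounts. Besides Lgals9 with Lgals3, and Lgals7 with Lgals4, neighbours in this order were at least 1.03 log2 apart, far more than any galectin's SD of 0.05 to 0.19.

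**Figure D1:**
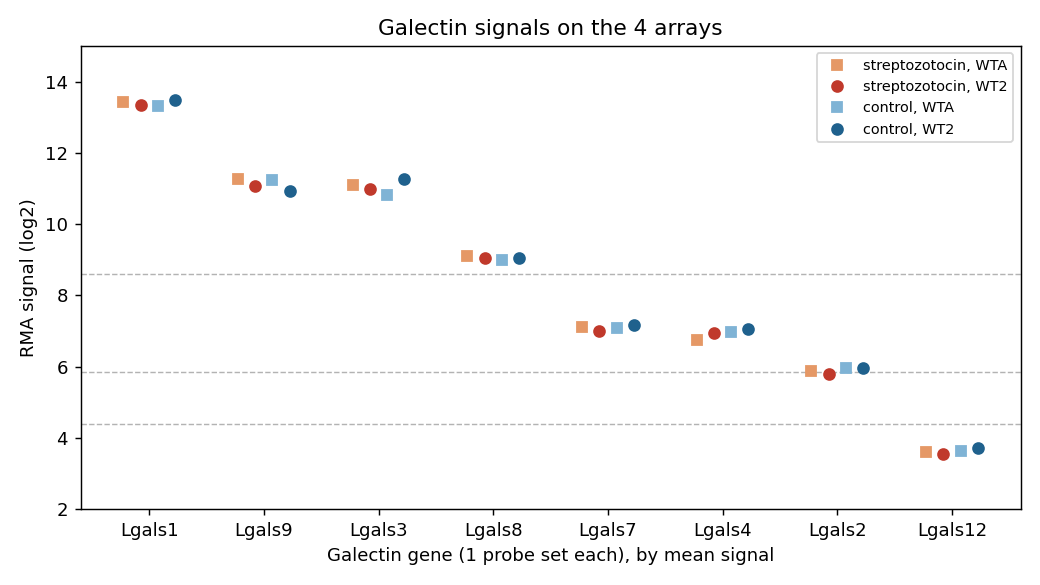
RMA signal (log2) of each galectin on each array, with streptozotocin arrays (red and orange) left of control arrays (blue), WTA as squares and WT2 as circles. Dashed lines are the quartiles of the mean signals of all probe sets (4.40, 5.86 and 8.61). Arrays of a gene lie within 0.45 log2, while genes span from 13.39 for Lgals1 to 3.63 for Lgals12.

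The range of the galectins, the highest minus the lowest of the 4 arrays, had a median of 0.17 log2, against 0.26 over all probe sets. All 8 ranges were under 1.5-fold, as were 81.1% of all probe sets. Set beside the probe sets within 0.5 log2 of its own signal, Lgals8 had a wider range than 6 of 117, Lgals7 than 7 of 100 and Lgals1 than 3 of 10. Lgals9 was wider than 20 of 51, Lgals4 than 32 of 104, Lgals2 than 47 of 133 and Lgals12 than 66 of 176. Lgals3 was wider than 32 of 57 and was the sole galectin above the middle of its like. Values shared by so few arrays describe these arrays only.

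**Figure D2:**
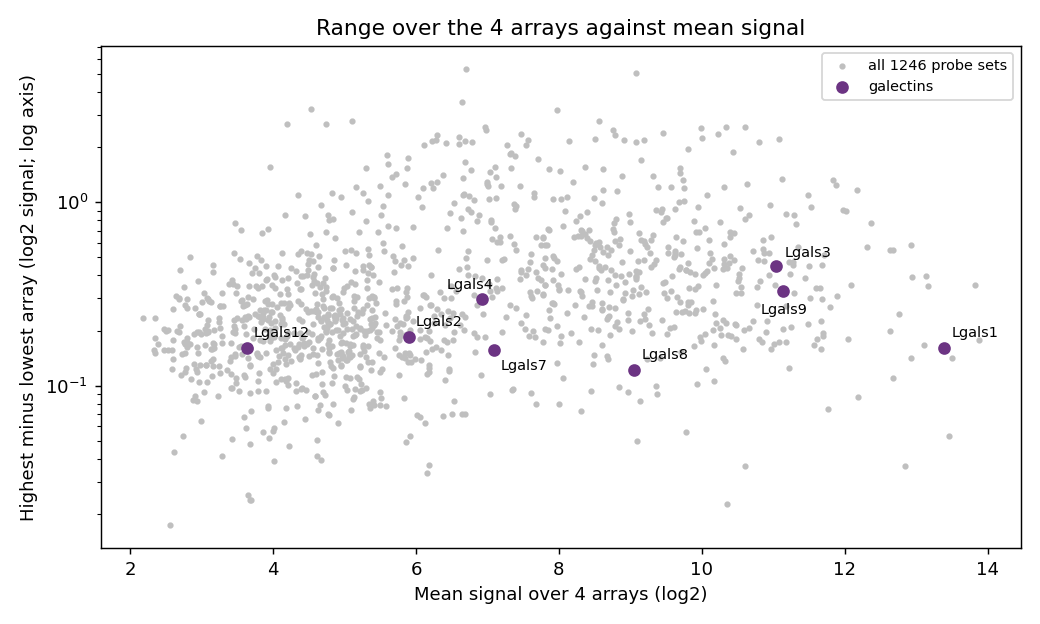
Range over the 4 arrays (log2, on a log axis) against mean signal (log2) for all 1246 probe sets (grey) and the 8 galectins (purple). Lgals8 and Lgals7 lie near the lower edge of probe sets of like signal, and Lgals3, at 0.45, is the widest galectin.

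The comparison of streptozotocin with control asked whether galectin expression responds to the compound. No galectin passed the test: limma, a linear model with a spread shared across probe sets, found 0 of 8 galectins and, of 1246 probe sets in all, 0 (0.0%) at a Benjamini-Hochberg adjusted p under 0.05. At an unadjusted p under 0.05 there were 0 galectins and 25 probe sets (2.01%). The differences ran from -0.17 (SE 0.11) for Lgals4 to 0.09 (SE 0.15) for Lgals9, with 6 galectins below 0 and 2 above, although Lgals1 was at 0.0469 after quantile normalization and Lgals3 at 0.0069 after median centring. The median was -0.05, against -0.01 over all probe sets. With the replicate number as a block the count of galectins stayed at 0.

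For the brightest galectins, Lgals1 averaged 13.38 ± 0.06 with streptozotocin against 13.41 ± 0.11 in the control arm (SD, n = 2 each), and Lgals3 11.03 ± 0.07 with streptozotocin and 11.04 ± 0.32 in control cells. The 95% interval of limma allowed Lgals1 a fold from 0.795 to 1.21, and Lgals3 one from 0.685 to 1.45. Each of the 8 intervals, taken singly, lay inside 1.5-fold in either direction, and each included no change. Intervals of this kind rest on 2 residual degrees of freedom and on the spread of the other probe sets.

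Streptozotocin and control arrays did not overlap for 4 galectins, Lgals8 (higher) and Lgals2, Lgals4 and Lgals12 (lower). Over the array, 24.6% of probe sets did not overlap, 10.8% higher and 13.8% lower. For Lgals2 the SD of the control arrays was 0.0005 and the difference was -0.14 (SE 0.09, limma adjusted p = 1).

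**Figure D3:**
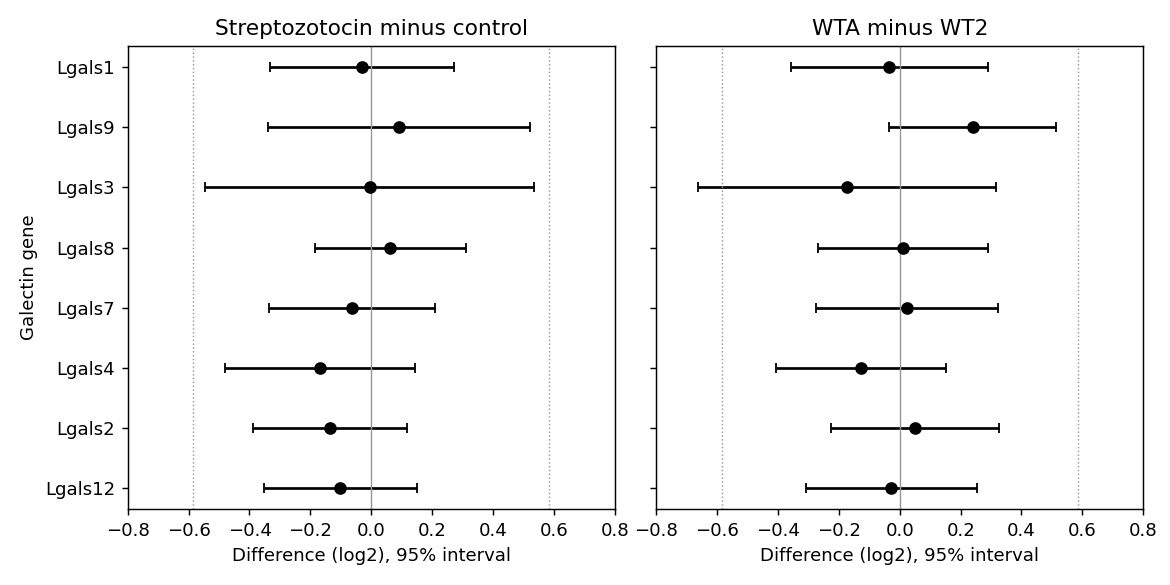
Log2 difference of each galectin with its 95% interval from limma, for streptozotocin minus control (left) and WTA minus WT2 (right). Dotted lines mark 1.5-fold, and every interval includes 0, with the Lgals3 culture interval alone reaching past a dotted line.

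Within the cultures, with 1 array per arm and no test, the streptozotocin difference of Lgals3 was 0.27 in WTA and -0.28 in WT2. That of Lgals1 was 0.10 in WTA and -0.15 in WT2, and that of Lgals7 0.03 in WTA and -0.16 in WT2. These 3 genes thus had opposite signs, as did 49.0% of all probe sets. Lgals9 was higher with streptozotocin in both cultures, by 0.05 in WTA and 0.13 in WT2, and so was Lgals8, by 0.12 in WTA and 0.004 in WT2, the last of which was -0.0067 after median centring. Both are tandem-repeat galectins, as are Lgals4 and Lgals12, which were lower in both. Lgals4 differed by -0.23 in WTA and -0.11 in WT2, Lgals2 by -0.09 in WTA and -0.19 in WT2, and Lgals12 by -0.04 in WTA and -0.16 in WT2. Of all probe sets, 22.6% were higher in both cultures and 28.5% lower in both.

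No galectin reached a 1.5-fold difference in either culture, as 2.33% of probe sets did in WTA and 7.3% in WT2. The largest galectin folds were those of Lgals3, 1.21 in WTA and 0.822 in WT2. After quantile normalization Lgals7 had the largest difference in WT2, -0.36, against -0.28 for Lgals3. In WT2, 6 of 8 galectins were lower with streptozotocin, the exceptions being Lgals8 and Lgals9, against 55.6% of all probe sets. The control array of WT2, which all WT2 differences share, correlated at 0.977 to 0.988 with the other arrays, while the WTA arrays correlated at 0.997 with each other.

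**Figure D4:**
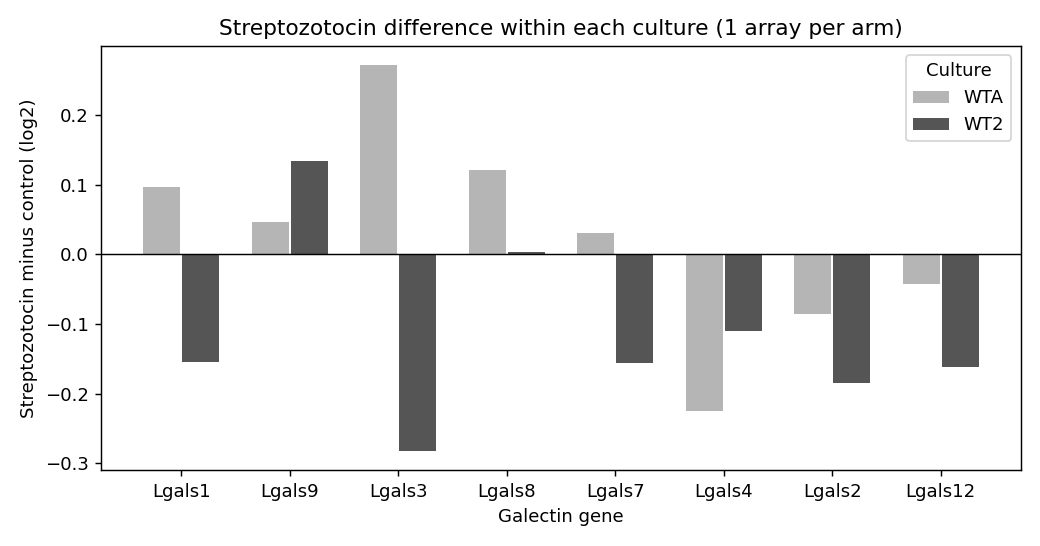
Streptozotocin minus control (log2) for each galectin within WTA (light) and WT2 (dark), 1 array per arm. Lgals3 has the longest bars, 0.27 in WTA and -0.28 in WT2, and Lgals2, Lgals4 and Lgals12 lie below 0 in both cultures.

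The comparison of the cultures asked how far galectins differ between cell samples of the same kind. In a limma fit with treatment and culture, 0 of 8 galectins passed, against 28 of 1246 probe sets (2.25%), by the same adjusted threshold. At an unadjusted p under 0.05 there were 0 galectins and 210 probe sets (16.9%). The largest difference was at Lgals9, with 11.25 ± 0.03 in WTA and 11.01 ± 0.10 in WT2 (SD, n = 2 each). WTA minus WT2 was 0.24 for it (SE 0.10, limma adjusted p = 0.350, interval from 0.977-fold to 1.43-fold). Lgals3 followed at -0.17 (SE 0.17) and Lgals4 at -0.13 (SE 0.10), and the other 5 lay between -0.03 and 0.05. Without either streptozotocin array, in a fit with the culture alone, Lgals3 differed more than Lgals9: -0.314 against 0.307 without that of WT2, and -0.309 against 0.216 without that of WTA. Without a control array Lgals9 differed more. It had 0.172 against -0.0313 for Lgals3 without that of WT2, and 0.263 against -0.0366 without that of WTA. Lgals3 was higher in WTA than in WT2 with streptozotocin (11.09 against 10.98) and lower in control cells (10.81 against 11.26).

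The cultures did not overlap for 1 of 8 galectins, Lgals9, and for 49.0% of all probe sets. The median size of the difference was 0.04 over the galectins and 0.12 over all probe sets. The interval of Lgals3 reached to 0.632-fold, past 1.5-fold lower, and those of the other 7 stayed inside 1.5-fold. The culture fit had 1 residual degree of freedom, so its SEs and intervals lean on the spread of the other probe sets. Each culture is a single named sample, so the p-values of this fit do not cover how such samples vary.

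Markers of other cells were set beside these values, since galectin-3 is abundant in macrophages. Of 23 macrophage and other leukocyte markers 16 were measured, and 2 of them, Csf1r and Selplg, lay above the median probe set. Their mean signal was 4.38 in WTA and 4.32 in WT2 with streptozotocin, against 4.31 in WTA and 4.39 in WT2 in control cells. This mean put the 4 arrays in the same order as Lgals3 did, over a range of 0.08 log2 against 0.45 for Lgals3. Csf1r and Selplg did not share that order. Each was highest in the streptozotocin array of WTA and lowest in that of WT2. Csf1r had 7.92 in WTA and 7.40 in WT2 with streptozotocin, against 7.47 in WTA and 7.66 in WT2 in control cells. The part of leukocytes in the Lgals3 values was not tested. Adgre1, which encodes the macrophage antigen F4/80, stood at 3.16 in WTA and 2.79 in WT2 with streptozotocin, against 2.87 in WTA and 2.996 in WT2 in control cells, all below the lower quartile. Of 11 endothelial markers 5 were measured, and 1 of them passed the culture test, Esm1, a proteoglycan of endothelial cells (WTA minus WT2 4.93, limma adjusted p = 0.00304). Its value of 3.99 in the control array of WT2 lay below the lower quartile. A dimmer Esm1 probe set differed by 2.93 (limma adjusted p = 0.0213). Thbd and Emcn differed by 1.33 and 1.22 without passing, and Pecam1 and Sele by 0.15 and 0.05. On all 4 arrays Pecam1 (3.79 to 3.997) and Sele (3.14 to 3.41) lay below the lower quartile, while Thbd and Emcn lay above it. The mean of the 5 was 6.58 in WTA and 5.17 in WT2 with streptozotocin, against 6.56 in WTA and 4.89 in WT2 in control cells. Of the 5, Esm1 had the widest range, 5.34 log2 against 1.94 for Thbd, and so the largest weight in the culture difference of this mean. The part of endothelial cells in the Lgals9 difference was not tested. Of 5 fibroblast markers 3 were measured, Dcn, Lum and Pdgfra, and 0 passed either test. Their mean was 10.90 in WTA and 11.23 in WT2 with streptozotocin, against 11.26 in WTA and 11.93 in WT2 in control cells. In each culture all 3 had a lower signal in the streptozotocin array, the median difference was -0.42, and their median WTA minus WT2 was -0.43. Their part in the galectin values was not tested. In such bulk RNA, fewer cells of a type and less RNA per cell cannot be told apart. Of 6 epithelial markers 1 was measured, Muc1, with a mean signal of 6.81, beside 7.09 for Lgals7 and 6.93 for Lgals4. Of adipocyte markers 0 of 5 were measured, so the Lgals12 signal has no such marker beside it.

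The relatives of the galectins that lack their usual sugar binding, Lgalsl and the lens protein gene Grifin, were measured too, 2 of 6 relatives looked for. Lgalsl had 8.89 in WTA and 8.37 in WT2 with streptozotocin, against 8.88 in WTA and 8.62 in WT2 in control cells. WTA minus WT2 was 0.39 (SE 0.11, limma adjusted p = 0.239), a larger difference than that of any of the 8 galectins, and it did not pass the test. Grifin differed by -0.16 (SE 0.09) between streptozotocin and control and by -0.02 between the cultures.

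Galectins bind N-acetyllactosamine (LacNAc), which galactosyltransferases and branching enzymes build on N- and O-glycans. Of 29 such enzymes looked for 27 were measured, and 0 passed the test for streptozotocin, with a median difference of -0.03. Gcnt1, which starts a branch on the O-glycan core, differed by -0.56 (SE 0.57), with -0.03 in WTA and -1.09 in WT2. A dimmer Gcnt1 probe set differed by -0.22, with 0.08 in WTA and -0.53 in WT2, and its WTA minus WT2 was -0.49. C1galt1, which makes the core to which O-glycan LacNAc is added, differed by 0.32, and Gcnt2, which branches LacNAc chains, by 0.29. Between the cultures 1 enzyme passed, C1galt1, which was higher in WTA by 0.97 (SE 0.09, limma adjusted p = 0.0445). Gcnt1 (-0.94) and B3gnt5, a glycolipid chain enzyme (0.86), did not pass. B3gnt5 passed with median centring, an intensity trend or a robust spread (limma adjusted p = 0.0398, 0.0336 and 0.0228). Gcnt1 passed without the streptozotocin array of WT2 (-1.49, adjusted p = 0.0334 in limma's fit with the culture alone), and differed by -0.40 without the control array of WT2. The C1galt1 call was lost under 8 of 11 other settings, with limma adjusted p from 0.0133 to 0.759 over the 11. They include the fit without the treatment term (0.126) and the 4 fits that leave out an array, which drop that term too, and in those 4 fits the difference was 0.80 to 1.13.

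Sialic acid on the terminal galactose changes which galectins can bind, and the alpha-2,6 linkage that St6gal1 makes is known to block galectin-1. St6gal1 stood at 8.21 in WTA and 6.38 in WT2 with streptozotocin, against 8.11 in WTA and 6.56 in WT2 in control cells. It was higher in WTA by 1.69 (SE 0.12, limma adjusted p = 0.0281), and it was the sole enzyme past that test among the 7 sialyltransferases measured of 8 looked for. Its call was lost under 4 of 11 other settings: in a fit with the culture alone, the adjusted p was 0.532 without the streptozotocin array of WTA and 0.443 without its control array, with differences of 1.64 and 1.74. Between streptozotocin and control 0 of 7 passed, with a median of -0.04. St3gal1 and St3gal2, which add alpha-2,3-linked sialic acid, differed by -0.26 (-0.47 to -0.06 with 1 array left out) and -0.23, and St3gal4, of the same linkage, by 0.16. The WTA minus WT2 differences of St3gal5, the ganglioside GM3 synthase, and of St3gal2 were 0.48 and -0.47 and did not pass.

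Of 34 glycoproteins known as galectin partners 12 were measured, and 0 passed either test. Their median streptozotocin difference was -0.07. Cd44, the hyaluronan receptor, differed by 0.57 (SE 0.25), with 0.38 in WTA and 0.75 in WT2, and with 1 array left out it ranged from 0.26 to 0.87. Havcr2, which encodes the galectin-9 receptor Tim-3, differed by 0.51 (SE 0.13, limma adjusted p = 1), with 5.12 in WTA and 4.88 in WT2 with streptozotocin, against 4.56 in WTA and 4.43 in WT2 in control cells. Those signals lay below the array median. Dag1, the laminin receptor dystroglycan, differed by -0.24 (-0.40 to -0.09 with 1 array left out). Between WTA and WT2, Tgfbr2, a TGF-beta receptor, differed by -0.79, the EGF receptor gene Egfr by -0.73, and Cspg4, a surface proteoglycan, by -0.64, with limma adjusted p of 0.160, 0.0702 and 0.0804. Dimmer probe sets of Egfr and Tgfbr2 differed by -0.28 and -0.41 (limma adjusted p = 0.286 and 0.160). With a robust spread the brighter Egfr probe set and Cspg4 passed (limma adjusted p = 0.0307 and 0.0421).

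The genes whose 4 values, each less its own mean, lay closest to those of Lgals3 and Lgals9 were sought among 517 other named genes above the median signal. For Lgals3 they were Pgm2, Gnpnat1 and Gnpda1, at Euclidean distances of 0.13, 0.14 and 0.16 log2. Pgm2 had 8.04 in WTA and 8.03 in WT2 with streptozotocin, against 7.80 in WTA and 8.14 in WT2 in control cells. For Lgals9 they were Vegfb, Il17rc and B4galt3, at 0.05, 0.08 and 0.08. Vegfb had 9.37 in WTA and 9.12 in WT2 with streptozotocin, against 9.31 in WTA and 9.05 in WT2 in control cells. Over 4 arrays such likeness is a description only.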

How the data were processed

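The authors deposited 1 log2 value per probe set and array, the product of RMA according to the submitters' processing notes (version and settings not given in the sources used here). Biotin-labelled cRNA came from 0.5 ug of total RNA by an Affymetrix procedure, per the labels' protocols. RMA by default makes the arrays' distributions equal, which would hide a shift shared by most genes, and it compresses differences of dim probe sets. Accessions in the probe set names were matched without version to RefSeq genes (GRCm38.p6), which named 963 of 1246 probe sets.

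Both comparisons were fitted over all probe sets with limma 3.58.1 in R 4.3.3 (lmFit, eBayes, two-sided, Benjamini-Hochberg over 1246, threshold 0.05): treatment alone for streptozotocin, and the culture term beside treatment for WTA minus WT2. Replicate numbers mark the same named culture in both arms and so pair the arrays (deviations of same-numbered arrays correlated at 0.600). The streptozotocin SEs and intervals printed here are from the fit without this pairing. With the replicate block the SE fell to 0.0957 for Lgals9, 0.134 for Cd44 and 0.289 for Gcnt1. Among the galectins it also fell for Lgals3 and Lgals4, and it rose for Lgals1, Lgals2 (to 0.0966), Lgals7, Lgals8 and Lgals12. All 8 galectins are named. From each related list the up to 3 genes with the largest difference per fit are named, from the brightest probe set, with every gene past a test, and the 3 nearest patterns of the 2 galectins of widest range. Marker genes given beside these fall outside that rule. Members and lists were chosen with earlier results of these data known. Results were recomputed with the replicate block, without each array, after quantile normalization or median centring, with an intensity trend or a robust spread, for probe sets above the median signal only, with the mean of a gene's probe sets and, for the cultures, no treatment term.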

Additional observations from a re-analysis of the deposited data

Results flagged for a closer look

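Lgals1, Lgals3 and Lgals7 had streptozotocin differences of opposite sign in the cultures, positive in WTA and negative in WT2. The WTA difference minus the WT2 difference was 0.55 log2 for Lgals3, 0.25 for Lgals1 and 0.19 for Lgals7. After quantile normalization it was 0.51 for Lgals3, 0.33 for Lgals1 and 0.55 for Lgals7. With 1 array per arm in each culture, this disagreement was not tested, and 49.0% of all probe sets showed opposite signs.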

How the results depend on the processing

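Under the 11 alternatives of each comparison, 0 galectins passed limma's test, with smallest adjusted p of 0.894 for streptozotocin and 0.225 for the cultures. The paired fit with the replicate block gave 0 galectins and 0 probe sets for streptozotocin (smallest adjusted p 0.536, 80 at an unadjusted p under 0.05), so it changed no call. The order of signals was the same after median centring and quantile normalization. Calls between the cultures numbered 28 probe sets, and 13 without the treatment term, 8 after quantile normalization, 2 of 623 above the median signal, 49 with a robust spread, and from 0 to 18 with 1 array left out. Fits without an array also drop the treatment term, so their counts are to be set against the 13: 0 without either array of WTA, 18 without the streptozotocin array of WT2 and 12 without its control array. The call of St6gal1 was lost after quantile normalization (adjusted p = 0.0695), above the median signal (0.0620) and without either array of WTA.

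The streptozotocin difference turned sign for Lgals1 after quantile normalization (0.0469) and for Lgals3 after median centring (0.0069), both near 0. After median centring the WT2 difference of Lgals8 was -0.0067, so 4 in place of 5 galectins had the same sign in both cultures. Quantile normalization moved Lgals7 to 0.19 in WTA and -0.36 in WT2, Lgals4 to -0.28 in WT2 and Lgals1 to 0.21 in WTA. With 1 array left out, which unbalances the cultures, streptozotocin differences ranged from -0.109 to 0.0510 for Lgals1, -0.23 to 0.22 for Lgals3, -0.0506 to 0.232 for Lgals9, -0.38 to 0.14 for Lgalsl, -0.17 to 0.81 for C1galt1, -1.30 to 0.18 for Gcnt1, -0.24 to 0.82 for Gcnt2, -0.490 to 0.0207 for St3gal2 and -0.0367 to 0.358 for St3gal4. Culture differences ranged from -0.112 to 0.0427 for Lgals1, -0.0432 to 0.142 for Lgals2, -0.0540 to 0.102 for Lgals7, -0.0500 to 0.0716 for Lgals8, -0.314 to -0.0313 for Lgals3, -0.241 to -0.0153 for Lgals4, -0.108 to 0.0533 for Lgals12 and -0.141 to 0.0973 for Grifin. Within the cultures, the streptozotocin difference of C1galt1 was 0.30 in WTA and 0.34 in WT2. That of St3gal2 was -0.19 in WTA and -0.28 in WT2, and that of St3gal4 0.10 in WTA and 0.22 in WT2. Lgals9 and the brighter Gcnt1 probe set also had the same sign in both cultures, while Lgals1, Lgals3, Lgalsl and Gcnt2 had opposite signs. The dimmer Gcnt1 probe set had opposite signs too, with 0.08 in WTA and -0.53 in WT2. The cause of the changes between settings was not tested. Dim signals, as of Lgals12, limit what a difference can show.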
